A study of Rattus norvegicus with 14 samples.

Results

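Amn, Cubn, Lrp2, Dab2 and Lrpap1 encode an endocytic uptake system of the visceral endoderm, the epithelium that covers the early rodent embryo and lines its yolk sac. They were taken as every non-control array probe whose gene name, or symbol in the probe description, was one of these 5 names. Each gene had 1 probe, so the set was 5 of 41012 distinct probes, and all 5 were among the 29300 probes that entered the tests, for which both arrays of some line had to be well above background.

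As background, visceral endoderm takes up maternal proteins, lipids and vitamins from the fluid around the embryo. Cubilin (Cubn) is a large peripheral receptor that binds ligands such as the complex of vitamin B12 with intrinsic factor, apolipoprotein A-I and albumin. It has no membrane span of its own, and amnionless (Amn) anchors it and carries it to the cell surface. Megalin (Lrp2), a giant member of the LDL receptor family, binds many of the same ligands and is taken up together with cubilin. Dab2 is the adaptor that links tails of such receptors to clathrin and AP2, and Lrpap1 (receptor-associated protein) is the chaperone of the endoplasmic reticulum that keeps LDL receptor family members from binding ligand too early. The same proteins work in the proximal tubule of the kidney.

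The study set 3 rat cell lines derived from blastocysts (Wk8, Fi1 and Fi2) and 3 derived from bone marrow (CL19, 3C3 and RMAPC-1), called hypoblast stem cells by its design text, beside 1 mesenchymal control line (RClone-2). Wk8 was Wistar-Kyoto and female, Fi1 Fischer and male, Fi2 Fischer and female, CL19 Fischer and female, and 3C3, RMAPC-1 and RClone-2 Fischer and male. The series title names a culture condition for MAPC (multipotent adult progenitor cells); no other treatment is labelled. Every line had an array A and an array B, 14 one-colour arrays in all, and nothing in the labels says whether both came from separate cultures, so the line was the replicate and p-values measure only the spread between these lines. Strain and line cannot be told apart in Wk8, and RClone-2 stood alone for its group.

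The arrays lay on 4 slides. Slides 1 and 3 carried Wk8, Fi1, Fi2 and CL19, and slides 2 and 4 carried RClone-2, 3C3 and RMAPC-1. Between 61.6% and 67.9% of spots were well above background. Arrays A and B differed over 2-fold at 16.6% of tested probes in RMAPC-1 and at 3.06% to 6.33% in the other lines. Marker genes of the labelled origins were read as a check. All 7 primitive endoderm markers (among them Gata4, Gata6, Sox17, Sox7, Pdgfra and Foxa2) passed as higher in both kinds of stem cell line than in RClone-2, and all 9 measured mesenchymal markers as lower. Of 11 visceral endoderm markers, 5 were higher and 3 lower in blastocyst lines than in RClone-2, and 4 were higher and 1 lower in bone marrow lines. Of 2 measured kidney proximal tubule markers, 2 were lower in blastocyst lines and 1 in bone marrow lines than in RClone-2. Over all probes, 22.9% were called higher and 25.8% lower in blastocyst lines than in RClone-2. For bone marrow lines these shares were 27% and 19.8%. They are to be set beside all marker counts against RClone-2, here and below.

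All values below are log2 processed signals relative to the 75th percentile of the same array, so that 0 is that percentile and each unit is a factor of 2. They compare lines for 1 probe at a time. The probes are 60 bases long, and the 5′ 30 bases of each are shown because all later values rest on these single targets.
Amn: tgactcaactcagaaggtggacatcttgga
Cubn: gatagcgcccttctatgcttcatcaaatcg
Lrp2: ttgttgctcgtattttgagtacccattgta
Dab2: tgcatcatttaccaatcctactccaagtgg
Lrpap1: ttgaaattatataaatctgtcactggaaat
By the files' build, rn4, they lie at chr6:136038513-136038572 on the plus strand (Amn), chr17:87546312-87546371 on the minus strand (Cubn), chr3:51563808-51563867 on the minus strand (Lrp2), chr2:55736106-55736165 on the plus strand (Dab2) and chr14:81304610-81304669 on the plus strand (Lrpap1). The files place them from base 1352, 10772, 15334, 2895 and 1353 of the transcripts of Amn, Cubn, Lrp2, Dab2 and Lrpap1, in that order. The transcript accession of each probe carried the same symbol in the RefSeq gene table of GRCr8. Exon and UTR annotation of rn4 was not used here.

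Cubilin, the ligand-binding receptor, was high in every stem cell line and low in the mesenchymal line. On arrays A and B it stood at 1.75 and 2.48 in Wk8, 3.96 and 4.09 in Fi1, and 4.56 and 4.27 in Fi2. It stood at 5.95 and 5.79 in CL19, 5.11 and 4.55 in 3C3, and 5.35 and 5.42 in RMAPC-1, against -3.11 and -2.74 in RClone-2. The line order was CL19, RMAPC-1, 3C3, Fi2, Fi1, Wk8 and RClone-2, and of these neighbours only 3C3 and Fi2 overlapped in their arrays.

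Amnionless, the membrane anchor of cubilin, had the widest spread among blastocyst lines of the 5 probes. It stood at 0.15 and 0.09 in Wk8, 2.86 and 4.0 in Fi1, and 4.69 and 4.97 in Fi2. The bone marrow arrays were close to each other, at 6.39 and 6.72 in CL19, 6.92 and 6.06 in 3C3, and 6.61 and 6.61 in RMAPC-1. RClone-2 had -5.69 and -4.74. The 3 bone marrow lines overlapped and spanned 0.12 between line means, while the blastocyst lines spanned 4.71, a factor of 26.1, and no blastocyst array reached a bone marrow array.

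Megalin, the partner receptor, followed the same line pattern at the ends. It stood at -1.66 and -2.37 in Wk8, 0.06 and 0.63 in Fi1, and 1.05 and 1.01 in Fi2. It stood at 2.85 and 3.09 in CL19, 2.55 and 1.94 in 3C3, and 2.29 and 1.35 in RMAPC-1. In RClone-2 it read -8.35 and -8.02 and was not well above background on either array, so only a bound can be given there. Among neighbours in the order CL19, 3C3, RMAPC-1, Fi2, Fi1, Wk8 and RClone-2, only 3C3 and RMAPC-1 overlapped.

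The adaptor Dab2 was above background in every line, the mesenchymal one included. It stood at 0.84 and 0.79 in Wk8, 2.07 and 2.34 in Fi1, and 2.74 and 2.33 in Fi2. It stood at 3.94 and 4.12 in CL19, 3.64 and 2.85 in 3C3, and 3.85 and 3.52 in RMAPC-1, against 0.73 and 1.01 in RClone-2. Wk8 was thus within the array range of RClone-2, and the other 5 stem cell lines were above it.

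The chaperone Lrpap1 varied least among stem cell lines. It stood at 5.28 and 5.46 in Wk8, 5.44 and 5.33 in Fi1, and 5.46 and 5.34 in Fi2. It stood at 6.01 and 6.22 in CL19, 6.15 and 5.53 in 3C3, and 6.29 and 6.07 in RMAPC-1, against 2.52 and 2.69 in RClone-2. The 3 blastocyst line means spanned 0.03 and overlapped, the bone marrow lines spanned 0.34 and overlapped, and these 2 sets of arrays did not meet.

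**Figure D1:**
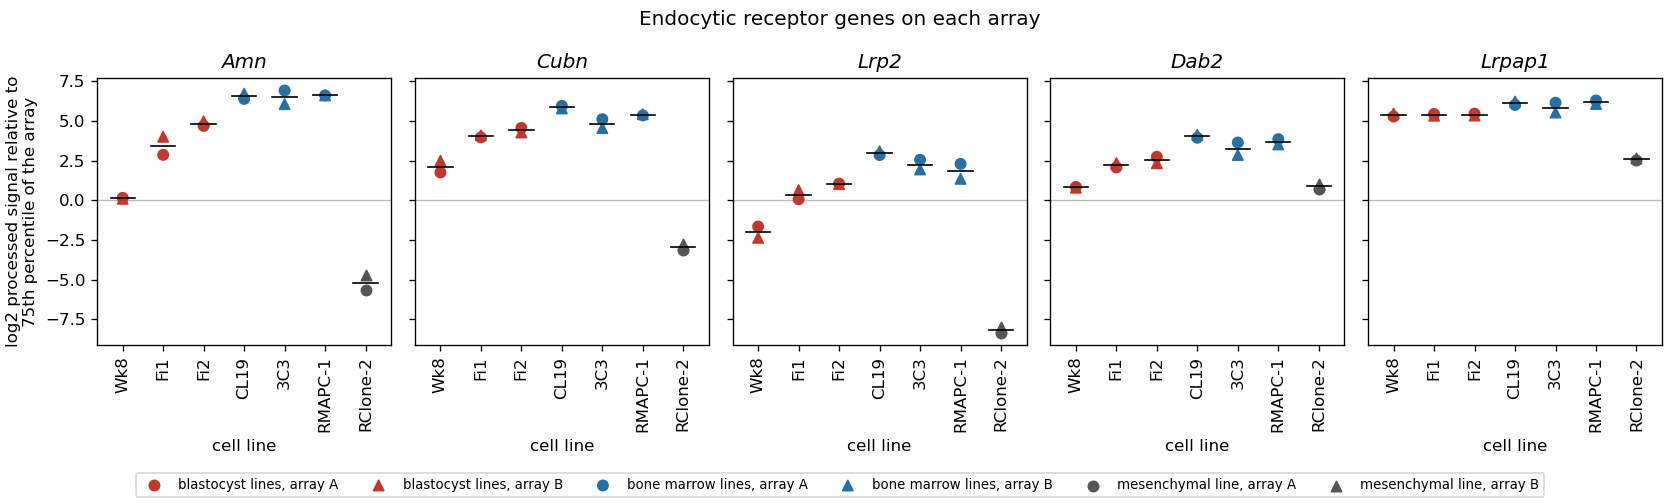
Signal of each gene on each array: the vertical axis is the log2 processed signal relative to the 75th percentile of the array, the horizontal axis the cell line, circles are arrays A, triangles arrays B and bars line means. Wk8 lies below Fi1 and Fi2 for Amn, Cubn, Lrp2 and Dab2 but not for Lrpap1, and RClone-2 is lowest except for Dab2.

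The comparison of origins asked how blastocyst lines differ from bone marrow lines. All 5 genes had all 3 blastocyst line means below all 3 bone marrow line means, and 2 of 5, Dab2 and Lrpap1, passed the test as lower in blastocyst lines. The receptors themselves had the larger differences but also the larger spread, and did not pass. In bulk RNA, fewer cells of a type and less RNA per cell cannot be told apart.

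Dab2 averaged 1.85 ± 0.91 in blastocyst lines and 3.65 ± 0.39 in bone marrow lines (SD, n = 3 each), a log2 difference of -1.80 ± 0.48 (SE), or 3.49-fold lower in blastocyst lines (limma, adjusted p = 0.0354 by Benjamini-Hochberg over all tested probes). Lrpap1 averaged 5.39 ± 0.01 in blastocyst lines and 6.04 ± 0.18 in bone marrow lines, a difference of -0.66 ± 0.13, or 1.58-fold lower in blastocyst lines (limma, adjusted p = 0.0166). The difference of Lrpap1 was the smallest of the 5, and its lines within an origin lay closest together apart from Amn in bone marrow lines.

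Amn averaged 2.79 ± 2.42 in blastocyst lines and 6.55 ± 0.06 in bone marrow lines, with a difference of -3.76 ± 1.14, 13.5-fold (limma, adjusted p = 0.0509). Lrp2 averaged -0.21 ± 1.6 in blastocyst lines and 2.35 ± 0.58 in bone marrow lines, with a difference of -2.56 ± 0.81, 5.89-fold (limma, adjusted p = 0.0559). Cubn averaged 3.52 ± 1.23 in blastocyst lines and 5.36 ± 0.52 in bone marrow lines, with a difference of -1.84 ± 0.64, 3.58-fold (limma, adjusted p = 0.0719). The 95% intervals of these 3 differences ran from -6.55 to -0.96 for Amn, from -4.53 to -0.59 for Lrp2 and from -3.40 to -0.28 for Cubn.

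Much of the array moved in the same direction. Over all 29300 probes the median difference was -0.20, with 23.3% of probes called lower and 9.13% called higher in blastocyst lines, and 36.5% had all 3 blastocyst line means below all 3 bone marrow line means. Relative to that median, the differences were -3.56 for Amn, -1.64 for Cubn, -2.36 for Lrp2, -1.6 for Dab2 and -0.46 for Lrpap1. As a description, 0.0887% of probes had a difference as low as that of Amn or lower, 0.488% as low as Lrp2, 1.38% as low as Cubn, 1.49% as low as Dab2 and 18.1% as low as Lrpap1. Of the calls, 28.2% were on the higher side, against 43.3% after quantile normalization, 45.6% where the percentile was taken over probes that were above background on every array, 48.4% by median centring, 84.7% unscaled and 16% by spiked-in transcripts. All 5 genes stayed lower in blastocyst lines under each of these scalings. The 75th percentile itself was 745.7 to 891.5 on blastocyst arrays and 558.9 to 660.1 on bone marrow arrays, without overlap. The difference of Lrpap1, -0.66 as reported, thus depends on the scaling. It was -0.32 after quantile normalization and -0.18 unscaled, and passed in neither (limma, adjusted p = 0.144 and 0.346).

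Within slides 1 and 3, where CL19 alone stood for bone marrow, the differences were -3.76 for Amn, -2.35 for Cubn, -3.19 for Lrp2, -2.18 for Dab2 and -0.73 for Lrpap1, and none passed (limma, adjusted p from 0.189 to 0.340), nor did any of the 29300 probes (6180 at an unadjusted p under 0.05). The calls of Dab2 and Lrpap1 were lost when the pair of slides was a term of the fit (adjusted p = 0.155 and 0.119), where 0 of 29300 probes passed (limma, 7577 at an unadjusted p under 0.05) and the differences were -2.18 and -0.73.

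**Figure D2:**
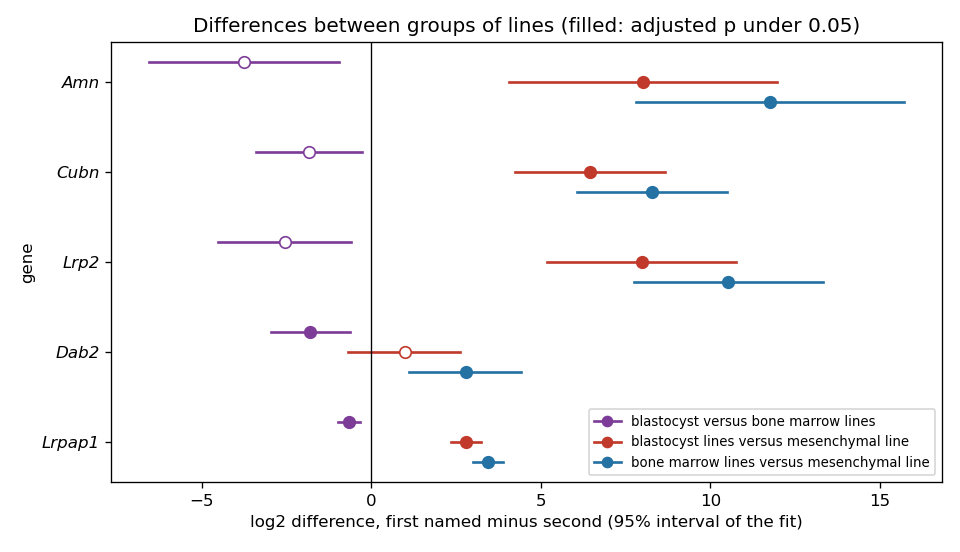
Log2 differences between groups of lines for each gene, with the 95% interval of the limma fit; filled points have an adjusted p under 0.05. Differences of blastocyst from bone marrow lines lie at -3.76 to -0.66, and only Dab2 has an interval across 0 against the mesenchymal line, in the blastocyst lines.

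The blastocyst lines differed among themselves, and Wk8 carried that spread for 4 of the 5 genes. Both Wk8 arrays were below all 4 arrays of Fi1 and Fi2 for Amn, Cubn, Lrp2 and Dab2, while Lrpap1 overlapped. Over all probes with values on these 6 arrays, 18.6% had both Wk8 arrays below all 4. Against the mean of Fi1 and Fi2, Wk8 was lower by 16.1-fold for Amn (-4.01), 6.50-fold for Lrp2 (-2.70), 4.32-fold for Cubn (-2.11) and 2.94-fold for Dab2 (-1.56), with -0.02 for Lrpap1. The median of all probes for this difference was 0.01, and the share of probes as low or lower was 0.177% for Amn, 0.638% for Lrp2, 1.12% for Cubn, 2% for Dab2 and 47.2% for Lrpap1.

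The gap between Wk8 and the nearer Fischer line was 3.31 for Amn, 2.36 for Lrp2, 1.92 for Cubn and 1.39 for Dab2. Arrays A and B of a blastocyst line differed by at most 1.14 for Amn, 0.71 for Lrp2, 0.73 for Cubn and 0.41 for Dab2, a spread that may be technical alone and does not measure that between lines. A single line stood for its strain, so no test between strains was made. Fi1 and Fi2 also differed, by 1.40 for Amn and 0.69 for Lrp2 with Fi2 higher on both arrays, and by 0.39 for Cubn, 0.33 for Dab2 and 0.02 for Lrpap1.

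Without Wk8 the differences of blastocyst from bone marrow lines shrank, while the calls among the 5 genes grew from 2 to 4. Over all 29300 probes the calls fell from 9492 to 7128. Amn was at -2.42 (limma, adjusted p = 0.0224) and Lrp2 at -1.66 (adjusted p = 0.0410), and both passed. Dab2 was -1.28 (adjusted p = 0.0311) and Lrpap1 -0.65 (adjusted p = 0.0373), and both still passed. Cubn was -1.14 and did not (adjusted p = 0.0609). Leaving out other lines moved the calls too. Without Fi2, Amn and Lrp2 joined Dab2 and Lrpap1, while calls over all probes fell to 6888. Dab2 was lost without any one of RMAPC-1, 3C3, CL19 and Fi1 (limma, adjusted p from 0.0695 to 0.0972). Lrpap1 was lost without Fi1 or RMAPC-1 (0.0542 and 0.0579).

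**Figure D3:**
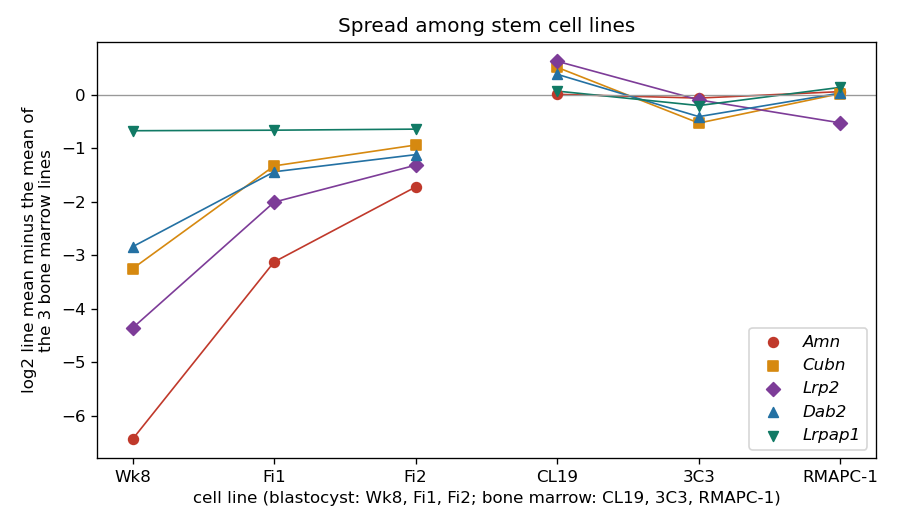
Line means of each gene minus the mean of the 3 bone marrow lines, on a log2 scale, for the 6 stem cell lines, with lines joining values of one gene within an origin. Amn, Lrp2, Cubn and Dab2 drop in Wk8 relative to Fi1 and Fi2, and Lrpap1 is level across the blastocyst lines.

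Endoderm marker lists differed in whether they followed these genes over the lines. The summed relative signal (linear, in units of the 75th percentile) of the 11 visceral endoderm markers was 2.60 and 2.67 on the Wk8 arrays, 6.66 and 9.44 in Fi1 and 12.4 and 15.6 in Fi2, and it was 19.9 to 39.3 on bone marrow arrays. On the log2 scale Ihh, a hedgehog ligand of that list, averaged 1.73 in blastocyst lines and 4.59 in bone marrow lines without passing (limma, adjusted p = 0.0654). No other marker of the list averaged above 1.77 in either. Ihh had line means of -0.42 in Wk8, 2.09 in Fi1, 3.53 in Fi2 and 4.32 to 4.87 in bone marrow lines. The rise of the linear sum from Wk8 to Fi2 and bone marrow lines is thus largely that of Ihh. Other members of the list had positive differences between origins that did not pass, 1.42 for Ttr, 1.05 for Apoa1, 0.91 for Afp and 0.57 for Fgb. The sum of the 7 primitive endoderm markers did not follow the receptors in Wk8, with 158 and 124 in Wk8, 139 and 146 in Fi1 and 138 and 143 in Fi2, and it was 172 to 209 on bone marrow arrays. The sum of the 12 parietal endoderm markers ran the other way, at 1550 and 1650 in Wk8, 1180 to 1270 in Fi1 and Fi2, and 822 to 1110 on bone marrow arrays. This linear sum is largely that of its brightest genes, Sparc, Col4a1, Lama1 and Lamb1. Between origins Sparc (0.10) and Col4a1 (0.16) did not pass, while Lama1 (1.01) and Lamb1 (0.95) passed as higher in blastocyst lines. Between origins, 3 of 11 visceral and 3 of 7 primitive endoderm markers passed as lower in blastocyst lines and 0 as higher. Of 12 parietal endoderm markers, 8 passed as higher and 0 as lower. Over all probes, 23.3% were called lower and 9.13% higher. The 3 visceral markers, Apob, Rbp4 and Hnf4a, had low signals, averaging -6.88, -6.02 and -4.48 in blastocyst lines. They averaged -5.48, -4.89 and -4.07 in bone marrow lines, and read -5.57, -3.96 and -3.86 in RClone-2. Apob was above background on 1 blastocyst array. Against RClone-2, 9 parietal endoderm markers were higher and 0 lower in blastocyst lines, and 10 higher and 1 lower in bone marrow lines. The part of these lists in the differences of the receptor genes was not tested.

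Summed mesenchymal, haematopoietic and kidney markers were lower in the stem cell lines than in RClone-2, while summed trophoblast markers were not lower in RMAPC-1. The 9 mesenchymal markers summed to 1.08 to 2.08 on blastocyst and 1.26 to 1.52 on bone marrow arrays, against 385 and 495 in RClone-2, and 4 of them were above background on no blastocyst array. The 4 measured haematopoietic markers summed to 0.722 to 1.15 and 0.571 to 0.862 on blastocyst and bone marrow arrays, against 10.8 and 17 in RClone-2. Between origins 1 mesenchymal marker was lower in blastocyst lines, 0 haematopoietic markers passed, and of 6 trophoblast markers 2 were lower, with sums of 0.337 to 0.576 on blastocyst and 0.943 to 2.26 on bone marrow arrays. RClone-2 had trophoblast sums of 1.57 and 1.72, below the 2.26 and 2.21 of RMAPC-1. Against RClone-2, 2 trophoblast markers were higher and 1 lower in either origin, and 1 haematopoietic marker was higher and 1 lower in blastocyst lines, 1 higher and 2 lower in bone marrow lines. The 2 measured kidney markers summed to at most 0.512 on stem cell arrays, against 92.8 and 108 in RClone-2, where Aqp1, a water channel, averaged 6.64 on the log2 scale. Between origins 1 of these 2, Slc5a2, passed as lower in blastocyst lines (-0.50).

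Against the mesenchymal line, 4 of 5 genes passed as higher in blastocyst lines. Amn averaged 2.79 in blastocyst lines and -5.21 in RClone-2, 257-fold (8.01 ± 1.62, limma, adjusted p = 0.00898). Cubn averaged 3.52 in blastocyst lines and -2.92 in RClone-2, 86.9-fold (6.44 ± 0.90, limma, adjusted p = 0.00226). Lrp2 averaged -0.21 in blastocyst lines and was at least 69.4-fold higher than in RClone-2, where its measured mean was -8.18 (limma, adjusted p = 0.00246). That p-value takes the RClone-2 reading as measured, though it was not well above background. Lrp2 also passed the filter on dim probes through the stem cell lines alone, so its p-value is not separate evidence. The bound on the fold sets the blastocyst mean against the lowest signal called well above background on the RClone-2 arrays. That is the lowest over all probes, so a higher floor would give a smaller fold. Each fold given as at least, here and below, is a bound for that choice of floor only. Without Wk8 the differences of Amn, Cubn and Lrp2 were 9.34, 7.14 and 8.87, and without Fi2 those of Amn and Lrp2 were 6.99 and 7.35. With normexp background correction, run with an offset of 50, they were 5.78 for Amn, 5.57 for Cubn and 3.28 for Lrp2, the last below the bound, and all 3 still passed.

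Lrpap1 averaged 5.39 in blastocyst lines and 2.60 in RClone-2, 6.88-fold (2.78 ± 0.18, limma, adjusted p = 1.01e-04). Dab2 averaged 1.85 in blastocyst lines and 0.87 in RClone-2, a difference of 0.98 ± 0.68 with an interval of -0.68 to 2.63, and did not pass (adjusted p = 0.272). Without Wk8 it was 1.5 and passed (adjusted p = 0.0208). Of all probes, 22.9% were called higher and 25.8% lower in blastocyst lines, and 46.9% of calls were on the higher side, against 69.2% unscaled and 22.5% by spiked-in transcripts. No slide held both groups. When the pair of slides was a term of the fit, which rests on the bone marrow lines as a link, the call of Amn was lost (8.0, adjusted p = 0.0874).

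Bone marrow lines were higher than the mesenchymal line for 5 of 5 genes. Amn averaged 6.55 in bone marrow lines and -5.21 in RClone-2, 3480-fold (11.77 ± 1.62, limma, adjusted p = 0.00212), and 0.0171% of probes had a difference as high or higher. Cubn averaged 5.36 in bone marrow lines and -2.92 in RClone-2, 311-fold (8.28 ± 0.90, adjusted p = 8.25e-04). Lrp2 averaged 2.35 in bone marrow lines and was at least 409-fold higher than in RClone-2 (limma, adjusted p = 8.05e-04, with the same limit on the p-value). With normexp these 3 differences were 9.56 for Amn, 7.46 for Cubn and 5.73 for Lrp2, the last again below its bound, and all passed. Dab2 averaged 3.65 in bone marrow lines and 0.87 in RClone-2, 6.87-fold (2.78 ± 0.68, adjusted p = 0.0179). Lrpap1 averaged 6.04 in bone marrow lines and 2.60 in RClone-2, 10.9-fold (3.44 ± 0.18, adjusted p = 4.27e-05).

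Of all probes, 27% were called higher and 19.8% lower in bone marrow lines than in RClone-2, and 57.7% of calls were on the higher side, against 36.2% by spiked-in transcripts. Within slides 2 and 4, where 3C3 and RMAPC-1 stood for bone marrow, the differences were 11.76 for Amn, 8.03 for Cubn, 10.22 for Lrp2, 2.59 for Dab2 and 3.41 for Lrpap1, and all 5 passed (limma, adjusted p at most 0.0166). Both comparisons with RClone-2 share its 2 arrays, and the fit assumed for it the spread seen in the 6 stem cell lines.

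In the rest of the uptake machinery few genes passed between origins, to be read beside 9.13% of all probes called higher and 23.3% called lower in blastocyst lines. Of 11 measured genes of the LDL receptor family other than Lrp2, 1 passed as higher in blastocyst lines and 0 as lower, with a median of 0.40. Of 14 other endocytic adaptors, 3 were higher and 0 lower, led by Numbl, a relative of the adaptor Numb (0.74, limma, adjusted p = 0.0205). Of 19 clathrin coat genes 1 was lower, Gak, a kinase that helps strip clathrin from vesicles (-0.50, adjusted p = 0.0285).

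Of 13 endosome sorting genes, 1 was higher in blastocyst lines and 1 lower. The higher one was Ehd3, a membrane remodelling ATPase of recycling endosomes (4.90-fold, 2.29, adjusted p = 0.00411), and the lower one Clcn5, a chloride-proton exchanger of endosomes (-0.61, adjusted p = 0.0353). Of 13 genes for ligands of the receptors, 3 were higher, led by Bmp4, a signalling ligand reported for megalin in mice (4.80-fold, 2.26, adjusted p = 0.0388). A further 3 were lower, led by Folr1, a folate receptor that megalin can internalize (-1.55, adjusted p = 0.00750). Of 12 other uptake and brush border genes, 1 was higher, Fcgrt, the neonatal Fc receptor (1.07, adjusted p = 0.0403), and 2 were lower, led by Ezr, a linker of actin to microvilli (-0.69, adjusted p = 0.0271). Fcgrt was well above background on 5 blastocyst arrays and 1 bone marrow array, and Bmp4 on 6 and 3.

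Against the mesenchymal line the same lists split both ways, as did all probes. Of all probes, 22.9% were called higher and 25.8% lower in blastocyst lines, and 27% higher and 19.8% lower in bone marrow lines. The counts of this and the next paragraphs are to be read beside these shares. In the LDL receptor family 4 of 11 genes were higher and 3 lower in blastocyst lines, and 2 higher and 3 lower in bone marrow lines. Lrp4, a receptor of the neuromuscular junction and of bone, was at least 44.8-fold higher in blastocyst and at least 34-fold higher in bone marrow lines, since it was above background on neither array of RClone-2. Vldlr, the receptor for very low density lipoprotein, was lower in blastocyst lines, where 2 of 6 arrays were above background, so that its difference of -6.49 rests mostly on signals near background, and was at least 53.7-fold lower in bone marrow lines, with none. The median of this list was -0.27 for blastocyst and -0.40 for bone marrow lines, beside -0.07 and 0.19 over all probes.

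Among adaptors 5 of 14 genes were higher and 5 lower in blastocyst lines, and 6 higher and 3 lower in bone marrow lines. Dab1, the adaptor most closely related to Dab2, was at least 2.34-fold and at least 2.57-fold higher in blastocyst and bone marrow lines. Gulp1, an engulfment adaptor, was at least 3.43-fold and at least 2.60-fold lower. Among 19 clathrin coat genes 3 were higher and 1 lower in blastocyst lines, and 5 higher and 1 lower in bone marrow lines. Among those that passed, Itsn1, a scaffold of coated pits, was highest (2.45 and 2.78) and Ap2a2, an AP2 subunit, lowest (-1.94 and -1.57).

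Among 13 endosome genes 3 were higher and 2 lower in blastocyst lines, from Ehd1 (1.41) to Rab11a (-1.93), and 3 higher and 3 lower in bone marrow lines, from Clcn5 (1.98) to Ehd3 (-2.41). Ehd1 is a relative of Ehd3, and Rab11a a GTPase of recycling endosomes. Among 13 ligand genes 6 were higher and 6 lower in blastocyst lines, and 5 and 5 in bone marrow lines. Apolipoprotein E (Apoe) was 673-fold and 911-fold higher in blastocyst and bone marrow lines. Apoh, another plasma apolipoprotein, was lower in both (-6.37 in blastocyst lines, where 2 of 6 arrays were above background and the size is likewise uncertain, and by at least 54.6-fold in bone marrow lines, where no array was above background).

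Among 12 other uptake and brush border genes 5 were higher and 3 lower in blastocyst lines, and 7 higher and 3 lower in bone marrow lines. Slc39a4, a zinc importer of the yolk sac and intestine, was 223-fold and 316-fold higher in blastocyst and bone marrow lines. Rab32, a GTPase of lysosome-related organelles, read -8.49 in blastocyst lines and Fcgrt -9.21 in bone marrow lines, each with 1 of 6 arrays above background, so that the sizes and ranks of both rest on signals near background. Eps8, an actin regulator named here after its value was seen, was above background on all 6 arrays of either origin and was lower, with differences of -8.31 in blastocyst and -7.99 in bone marrow lines.

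**Figure D4:**
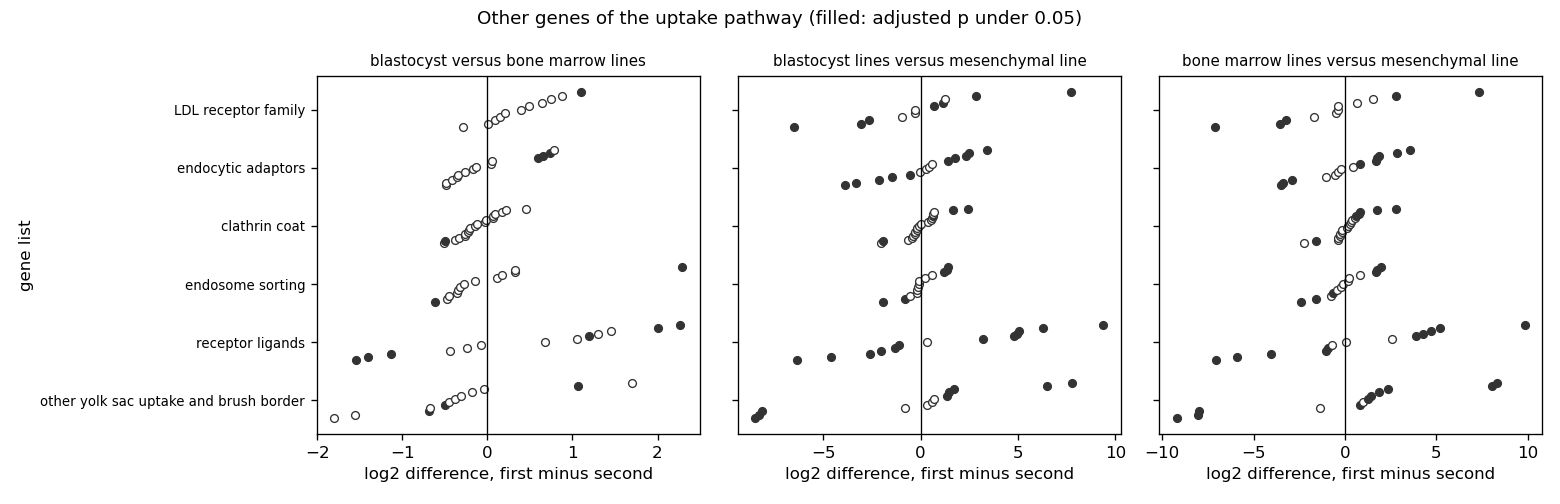
Log2 differences of single genes in 6 lists of the uptake pathway, outside the 5 receptor system genes, for each of the 3 comparisons; each point is a gene by its brightest probe and filled points have an adjusted p under 0.05. Between origins 0 to 3 genes of a list are filled on either side, and each list holds called genes on both sides against the mesenchymal line.

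Likeness of pattern was measured as the root mean square distance between line means, each gene centred on its own mean over the 7 lines, among 12075 genes with a symbol. Among the members the closest pairs were Cubn and Lrp2 (0.811), Amn and Lrp2 (0.813) and Dab2 and Lrpap1 (0.848), and the most distant were Amn with Dab2 and with Lrpap1 (3.06 each). The genes nearest to Amn were H19 (0.479), C5h1orf210 (0.495) and Dnmt3l (0.536). Among the nearest to Cubn were Pbld1 (0.305) and Pdzk1 (0.403). Nearest to Lrp2 were Ap1m2 (0.265), Serpinb5 (0.529) and Ihh (0.568). Ap1m2 was above background on 12 of 14 arrays.

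Nearest to Dab2 were Akr1c1 (0.191), Misp3 (0.301) and Nrg1 (0.305), of which Akr1c1 was above background on 5 of 14 arrays. Nearest to Lrpap1 were N4bp2 (0.139), Cpamd8 (0.153) and Robo1 (0.163). Ap1m2, the gene nearest to Lrp2, had line means of -1.46 in Wk8, 1.37 in Fi1, 1.51 in Fi2, 3.34 in CL19, 3.02 in 3C3, 2.91 in RMAPC-1 and -7.21 in RClone-2. Ap1m2 encodes a subunit of the AP1 clathrin adaptor of epithelial cells and was in none of the lists above.

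The 250 bases upstream of the RefSeq starts of Amn, Cubn and Lrp2 are shown because their promoters were searched for motifs of endoderm factors. Among the members, Lrp2 was the nearest in pattern to both Amn and Cubn. The motifs were GATAA (GATA factors), ATTGT (SOX factors), and TGTTTAC and TATTTAC (FOXA factors), on both strands, and capitals mark matches.
Amn: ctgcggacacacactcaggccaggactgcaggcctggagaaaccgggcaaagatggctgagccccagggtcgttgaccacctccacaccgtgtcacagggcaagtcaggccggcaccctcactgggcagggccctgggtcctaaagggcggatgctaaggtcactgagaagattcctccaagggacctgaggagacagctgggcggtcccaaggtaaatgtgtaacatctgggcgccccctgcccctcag
Cubn: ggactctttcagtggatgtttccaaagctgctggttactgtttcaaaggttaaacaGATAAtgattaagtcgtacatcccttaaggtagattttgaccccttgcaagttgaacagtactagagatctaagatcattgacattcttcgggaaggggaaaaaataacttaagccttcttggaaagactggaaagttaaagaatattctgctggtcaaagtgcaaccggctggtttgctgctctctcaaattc
Lrp2: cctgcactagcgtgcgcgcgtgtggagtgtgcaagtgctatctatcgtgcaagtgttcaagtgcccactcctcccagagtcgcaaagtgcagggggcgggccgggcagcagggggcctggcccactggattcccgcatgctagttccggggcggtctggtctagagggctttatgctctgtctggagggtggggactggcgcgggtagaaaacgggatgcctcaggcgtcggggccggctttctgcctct
In the RefSeq build GRCr8 they lie at chr6:136132317-136132566 on the plus strand, chr17:81501695-81501944 on the minus strand and chr3:74754536-74754785 on the minus strand. Cubn held 1 GATAA, which starts 194 bases upstream of the RefSeq start, and none of the 5 members held another match in this window. For Dab2 the window searched, chr2:57272050-57272299, lies inside the span of the gene (57241947 to 57294893) and not upstream of its start. Among 33469 promoters of the same length, 23.5% held GATAA, 30% ATTGT, 3.21% TGTTTAC and 3.04% TATTTAC. GC content was 62.8% for Amn, 40% for Cubn and 64.4% for Lrp2.

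**Figure D5:**
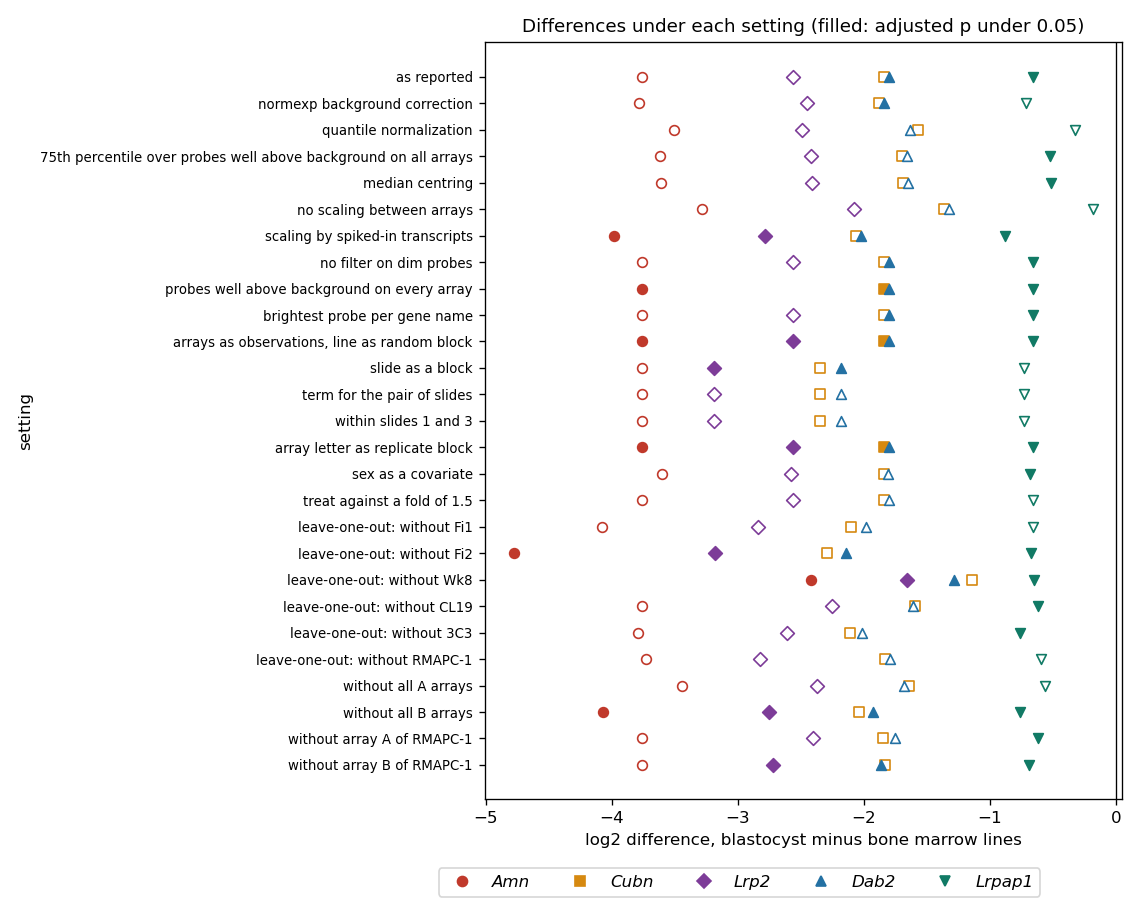
Log2 difference of blastocyst from bone marrow lines for each gene under the reported and each alternative setting; filled points have an adjusted p under 0.05. All points lie below 0, and which genes are filled changes from setting to setting.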

How the data were processed

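RNA of 7 rat lines was measured on 14 one-colour arrays. Spot values were extracted with Agilent Feature Extraction 10.7.3.1, per the submitters' processing notes, and per the file headers the deposited processed signal is an intensity corrected for background within the array and not scaled between arrays. Background, outlier and saturation flags are deposited as other values of 0 or 1. The deposited series table was not used, because its row numbers could not be paired with probes.

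The log2 of each processed signal was taken, less the 75th percentile of the array over 43379 non-control spots. Outlier spots were left out, 65 to 193 per array, and arrays A and B of a line averaged. With limma 3.58.1 (R 4.3.3), lmFit and eBayes were run on line means, leaving 4 residual degrees of freedom. P-values were adjusted by Benjamini-Hochberg over 29300 probes, with a threshold of 0.05. The number of lines limits the precision. Gene lists used the brightest probe of a gene. Named genes were the members, the largest difference in each direction per list among genes that passed, and the 3 genes nearest to each member, of which some are not reported here. The members and lists were chosen with earlier results of these data known. In simulated data, 67, 67 and 66 of 29300 probes were changed by 1, 2 and 4 on the log2 scale. The noise was independent and of equal spread in every line. The fit between origins recovered 38.8%, 80.6% and 92.4% of these changes. In the data more probes were called and the spread was unequal between origins, so these shares may not carry over. Promoters came from RefSeq (GRCr8). Alternatives covered background, scaling, filters, slides, sex and left-out lines or arrays. Figures were drawn with matplotlib 3.10.9.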

Additional observations from a re-analysis of the deposited data

Results flagged for a closer look

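Of 10 sets of 6 arrays, 1 held a value far from the rest for its spread: Lrpap1 on array B of 3C3, at 5.53, against 6.01 to 6.29 on the other 5 bone marrow arrays (Dixon's ratio 0.634, critical value 0.625). Chance gives such a value in about 1 of 20 groups. The same array was also the lowest of the bone marrow arrays for Amn, Cubn and Dab2, at 6.06, 4.55 and 2.85, with ratios under the critical value. Without 3C3 the difference of Lrpap1 between blastocyst and bone marrow lines was -0.76 and still passed (limma, adjusted p = 0.0339).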

How the results depend on the processing

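Directions of all 5 genes held in all 3 comparisons under every setting run; the calls between blastocyst and bone marrow lines did not. Of the 5, 2 were called as reported. The number called was 0 by quantile normalization, unscaled, with a slide-pair term, within slides 1 and 3, against a fold of 1.5 (limma's treat) and without all A arrays. It was 1 with normexp, the percentile over probes above background throughout, median centring, sex as a covariate and without array A of RMAPC-1, and 4 with spiked-in scaling, for probes above background on every array (Lrp2 not tested), and without all B arrays. Fits to single arrays, with a random effect of the line or the array letter as replicate block, gave 5. Over all probes these 2 fits called 12112 and 11989. They take arrays A and B of a line as observations, though their spread may be technical alone, so their p-values may be too small. Slide as a block kept the number at 2 but exchanged Lrpap1 (adjusted p = 0.0533) for Lrp2 (0.0468), and without array B of RMAPC-1 it was 3. Leaving out 1 line gave 0 to 4, with 3587 to 7128 calls over all probes. Without array A of RMAPC-1, 5604 of all probes were called, and without array B 9807. With the percentile over probes above background throughout, 7262 were called. Over all 29300 probes 9492 were called between origins. That number was 0 under the slide-pair term (7577 unadjusted) and within slides 1 and 3 (6180 unadjusted), 662 by treat and 1621 with normexp. It was 6874 by quantile normalization, 9061 unscaled, 9291 with spiked-in scaling and 6882 by median centring. It was 5130 with sex as a covariate, 3597 with slide as a block, 3024 without all A arrays and 6180 without all B arrays. With no filter 12619 of 41012 were called, and 8456 of 21286 above background on every array. Against RClone-2 the only calls of these genes to change were those of Amn and Dab2 in blastocyst lines given above, with Lrp2 not tested under the strictest filter. Over all probes, 14268 for blastocyst lines became 6522 with normexp, and 13714 for bone marrow lines became 6895. RClone-2 could not be left out of its comparisons.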
